A study of Rattus norvegicus with 9 samples.

Results

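Deoxynucleotide supply genes are the genes whose enzymes make, recycle, or remove the building blocks of DNA. The 9 genes examined here, Rrm1, Rrm2, Rrm2b, Tyms, Dut, Dctd, Tk1, Dck, and Samhd1, were taken by symbol from the 35362 genes of the count table, and all 9 were among the 14770 genes with enough counts to be tested. Their RNA was measured by RNA-Seq in adipose-derived mesenchymal stem cells (ASCs) of Sprague Dawley rats, male and aged 6 weeks per the methods. The cells were grown from 3 fat deposits with no treatment named: SASCs from the subcutaneous fat of the groin, PASCs from the perirenal fat, and EASCs from the epididymal fat. There were 3 samples in each group at passage 3 (P3), obtained by adherence to the dish after collagenase digestion, with no sorting described. The methods describe 6 replicates of each group as wells of culture plates, of which 3 samples are analysed here, and do not say from which animals the wells were seeded, so the p-values measure the spread between these samples, which may be technical.

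Ribonucleotide reductase converts ribonucleotides to deoxyribonucleotides and is the entry point of the DNA precursors that are made anew rather than salvaged. It is built from the catalytic subunit Rrm1 with a small subunit, which is Rrm2 in dividing cells and Rrm2b, a target of p53, in cells that repair DNA or copy mitochondrial DNA without dividing. Dctd and Dut deliver dUMP, Tyms turns dUMP into the thymidine nucleotide, Tk1 and Dck salvage thymidine and deoxycytidine that are already made, and Samhd1 breaks deoxynucleoside triphosphates down again. Several of these genes, above all Rrm2, Tyms, and Tk1, are known to be transcribed in S phase.

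Total counts ranged from 17591916 to 30299032 per sample. Genes of ribosomal RNA took 10.4 to 15.5% of the counts in SASCs, against 22.4 to 32.9% in PASCs and 15.9 to 40.3% in EASCs. The row of the 45S precursor held nearly the counts of the 18S and 28S rows together in each sample. In SASCs replicate 1 these were 1895098, 887394, and 1005737 counts. The same reads may thus stand in more than a single row, which would raise these shares and the total counts. The TMM method of edgeR, with factors between 0.740 and 1.23, was used for scaling. Levels are given as CPM, the counts relative to the TMM-scaled library total, and as FPKM, which is the same value per kilobase of the gene length in the table, where genes are compared with each other. Mesenchymal markers were abundant in every sample, with a summed level of 3838 to 5145 CPM over 8 genes. Cd3e and Ms4a1, which define T and B cells, were at 0 counts throughout. Of the mesenchymal sum, Itgb1 was the largest part in PASCs and EASCs, at 1045 CPM in SASCs, 1813 in PASCs, and 2950 in EASCs. Pdgfra stood at 1542 CPM in SASCs against 278 in PASCs and 234.5 in EASCs. Against SASCs, Eng and Cd44 were also higher in both groups and Pdgfrb was also lower. Thy1, Nt5e, and Alcam differed in sign between PASCs and EASCs. Other marker lists moved with the groups. The sums of 8 mesothelial markers were 20 to 21.6 CPM in SASCs, against 98.3 to 105 in PASCs and 130 to 141 in EASCs, those of 13 leukocyte markers 57.3 to 62.9, 137 to 142, and 205 to 218, and those of 5 adipocyte markers 87.0 to 95.8, 19.1 to 20.2, and 9.24 to 10.1, in the same order. Those of 7 endothelial markers were highest in SASCs, at 44.5 to 46.3 CPM, against 30.6 to 33.4 in EASCs and 11.6 to 14.7 in PASCs. Their part in the results was not tested, and fewer cells of a type cannot be told apart from less RNA per cell in these bulk samples.

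Per kilobase, Rrm1 and Rrm2 were among the 3 highest of the 9 genes in each group and Samhd1 was the lowest in the mean, while Tk1 moved up from the fourth place in SASCs. In SASCs the order of mean FPKM was Rrm2 (18.15), Rrm1 (11.9), Dut (6.47), Tk1 (4.43), Dctd (4.08), Dck (3.44), Tyms (3.01), Rrm2b (2.84), and Samhd1 (1.57). The samples of Dctd overlapped those of Tk1 above and of Dck below it, and those of Tyms and Rrm2b overlapped as well. In PASCs the order began with Rrm2 (54.3), Tk1 (51.7), and Rrm1 (43.3), and Tk1, at 48.1 to 55.2 FPKM, could not be separated from Rrm2, at 52.9 to 55.2. In EASCs it began with Rrm1 (36.5), Rrm2 (34.9), and Tk1 (27.5), and the samples of the 2 reductase subunits overlapped. Dut followed in both groups at 21.4 and 14.75 FPKM, then Dctd at 9.75 and 10.0, Tyms at 7.85 and 6.70, and Dck at 5.77 and 4.21, and the samples of Dctd and Tyms overlapped in PASCs. In PASCs Rrm2b (1.64) and Samhd1 (1.62) stood at the same level with overlapping samples, and in EASCs too the samples of Rrm2b (2.33) and Samhd1 (1.74) overlapped. Summed over the 9 genes, the samples of SASCs had 55.0 to 57.4 FPKM, those of PASCs 189.6 to 203, and those of EASCs 135 to 142. Of this sum Tk1 made up 7.92% in SASCs, 26.2% in PASCs, and 19.85% in EASCs, and Rrm2b 5.08%, 0.831%, and 1.68%.

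**Figure D1:**
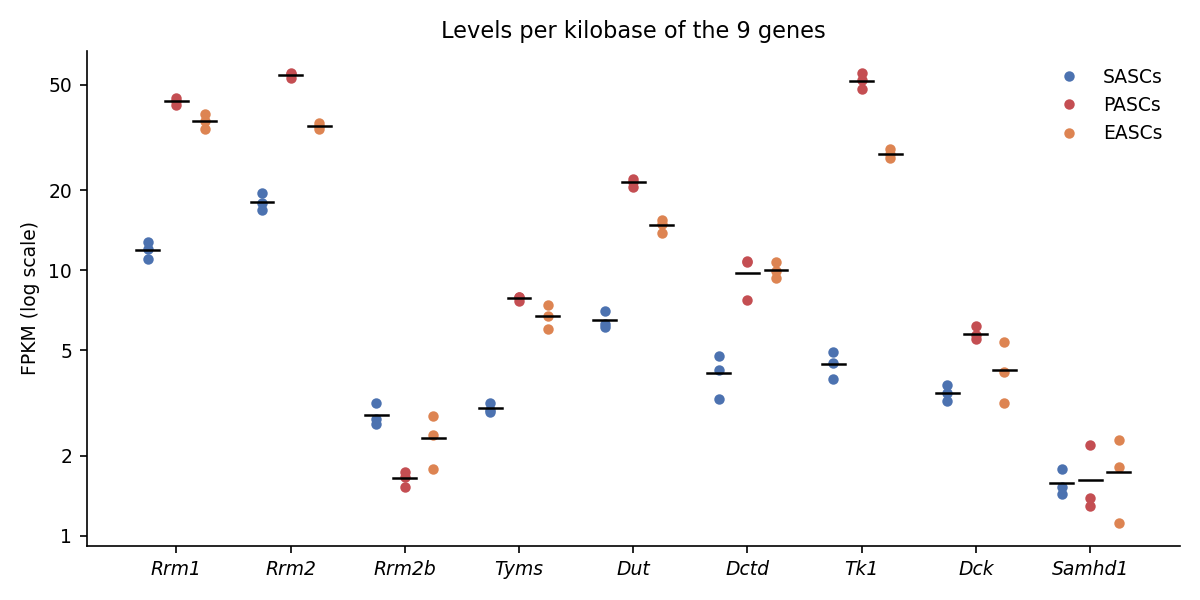
Level per kilobase of the 9 genes in FPKM (vertical axis, log scale) by gene (horizontal axis), with a point for each of the 3 samples of SASCs, PASCs, and EASCs and a bar at the group mean. Tk1 moves from 4.43 FPKM in SASCs to 51.7 in PASCs, beside Rrm2 at 54.3. Samhd1 has the lowest mean in each group, and its samples overlap those of Rrm2b in PASCs and EASCs.

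The promoters of these genes are shown because several members moved together across the groups. Of the 9 genes, 7 had an entry among the promoter sequences of RefSeq for the rat build GRCr8, each 300 bases around the start of the transcript, and Dut had 2 entries. Rrm2 and Rrm2b had none. Each was searched on both strands for the E2F words TTTCCCGC, TTTCGCGC, TTTGCCGC, and TTTGGCGC, for TTTGAA (the core of the CHR element of cell-cycle genes), and for CCAAT. None of these words contains another. The sequences below, written 5′ to 3′ along the gene with the words found in capitals, are those of the gene with the E2F word, of the catalytic subunit, of the second Dut start, and of Tk1, the gene that changed most.
Tyms, chr9:120776034-120776333, minus strand: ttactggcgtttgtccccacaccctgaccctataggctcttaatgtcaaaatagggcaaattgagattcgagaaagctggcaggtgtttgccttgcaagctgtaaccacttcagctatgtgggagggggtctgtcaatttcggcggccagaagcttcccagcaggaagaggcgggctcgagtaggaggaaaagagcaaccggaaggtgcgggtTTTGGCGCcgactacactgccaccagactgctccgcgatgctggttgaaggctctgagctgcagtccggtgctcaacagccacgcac
Rrm1, chr1:166235654-166235953, plus strand: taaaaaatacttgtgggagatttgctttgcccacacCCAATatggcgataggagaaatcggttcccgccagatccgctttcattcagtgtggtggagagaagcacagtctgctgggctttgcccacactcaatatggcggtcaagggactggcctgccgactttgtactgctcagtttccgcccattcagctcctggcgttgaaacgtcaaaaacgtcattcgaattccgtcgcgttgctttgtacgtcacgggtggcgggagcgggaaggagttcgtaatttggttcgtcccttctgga
Dut, chr3:132952649-132952948, plus strand: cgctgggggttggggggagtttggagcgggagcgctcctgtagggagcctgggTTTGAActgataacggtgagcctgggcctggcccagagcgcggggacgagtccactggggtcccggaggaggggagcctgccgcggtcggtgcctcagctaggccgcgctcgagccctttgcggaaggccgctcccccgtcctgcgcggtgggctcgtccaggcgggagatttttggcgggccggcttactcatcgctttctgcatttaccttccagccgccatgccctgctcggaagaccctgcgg
Tk1, chr10:103544728-103545027, minus strand: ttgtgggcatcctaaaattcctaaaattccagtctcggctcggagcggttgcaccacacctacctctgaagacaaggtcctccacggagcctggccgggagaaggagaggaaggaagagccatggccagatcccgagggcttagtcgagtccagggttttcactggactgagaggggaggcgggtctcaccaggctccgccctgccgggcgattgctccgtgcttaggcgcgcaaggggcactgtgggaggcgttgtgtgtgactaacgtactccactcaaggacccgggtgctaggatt
The E2F word TTTGGCGC of Tyms starts at -37 from the transcript start, and 2.14% of the 33469 rat promoters of this length held any of the E2F words. CCAAT was found in Rrm1, as in 37.5% of all promoters, and TTTGAA in the second promoter of Dut and in that of Dck, as in 18.3%. No listed word was found in the window of Tk1, Dctd, Samhd1, or the first start of Dut, which says only that these letters are not there.

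Both main subunits of ribonucleotide reductase were upregulated in PASCs, while Rrm2b fell. In the table Rrm1 lies on chromosome 1 from 167538387 to 167562688 (plus strand), Rrm2 on chromosome 6 from 43884627 to 43890818 (plus), and Rrm2b on chromosome 7 from 76750045 to 76780817 (minus). The methods name the build rn6, whose scaffold names the table uses, although the submitters' processing notes name rn5. Rrm1, the catalytic subunit, was at 36.2, 38.4, and 33.3 CPM in the samples of SASCs, at 131, 134, and 126.5 CPM in PASCs, and at 117, 109.8, and 103 CPM in EASCs. No samples of different groups overlapped. In PASCs this was a fold of 3.63 (95% interval of the log2 fold change from 1.73 to 1.99, adjusted p = 1.20e-19 by edgeR's quasi-likelihood test with Benjamini-Hochberg adjustment over all genes tested), and in EASCs a fold of 3.05 (interval from 1.48 to 1.74, adjusted p = 3.11e-18). EASCs stood below PASCs by 1.19-fold (adjusted p = 0.00202), log2 -0.25 with a standard error of 0.0602. With total counts in place of TMM the log2 difference was -0.31 with a standard error of 0.161 and did not pass (adjusted p = 0.215).

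Rrm2, the small subunit of dividing cells, was at 49.55, 42.55, and 45.5 CPM in SASCs, at 139, 139.6, and 134 CPM in PASCs, and at 87.95, 86.25, and 90.5 CPM in EASCs. The 3 groups were again separate, with EASCs between the others. The fold in PASCs against SASCs was 2.99, and that in EASCs 1.92 (log2 0.94, standard error 0.0609, adjusted p = 1.28e-13), just under the threshold for DEGs. Without SASCs replicate 1 it passed that threshold, with a log2 fold change of 1.004 (adjusted p = 5.05e-13). EASCs stood below PASCs by 1.56-fold (adjusted p = 1.01e-09), where Rrm1 differed by 1.19-fold.

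Rrm2b, the p53-inducible small subunit, was the member that went the other way. It had 38 to 95 counts per sample, which made 3.30, 3.18, and 3.81 CPM in SASCs, 1.84, 2.09, and 2.01 CPM in PASCs, and 3.39, 2.88, and 2.15 CPM in EASCs. Every sample of PASCs lay below every sample of the other groups, by a narrow margin from the lowest sample of EASCs, and EASCs overlapped SASCs. PASCs were lower than SASCs by a fold of 1.73 (log2 -0.79, standard error 0.224, adjusted p = 0.00293, edgeR). In EASCs it was -0.28 with a 95% interval from -0.70 to 0.14 (adjusted p = 0.245), which became -0.67 (adjusted p = 0.0247) with total counts in place of TMM, and EASCs against PASCs gave 0.51 with an interval from 0.058 to 0.953 (adjusted p = 0.0984). Without EASCs replicate 3, its lowest sample, the last comparison passed (0.67, adjusted p = 0.0363).

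A second row of the table bears on Rrm2. LOC100359539, described as ribonucleotide reductase M2 polypeptide and typed as a miscellaneous RNA, lies on chromosome 19 from 25391690 to 25394245 with a length of 2556 bases, against 2527 for Rrm2. It had 361 to 1304 counts, which was 24.3 to 27.9% of the counts of both rows together. The share was 27.3% ± 0.694 in SASCs, 25.4% ± 1.06 in PASCs, and 26.0% ± 0.334 in EASCs (SD, n = 3 each), and the log2 fold changes of LOC100359539, 1.45 in PASCs and 0.84 in EASCs, ran close to those of Rrm2. How reads that fit both rows were counted is not given in the sources used here, so the level of Rrm2, and its place in the order of levels, is uncertain. With both rows summed, an alternative added after seeing the data, SASCs had 63.1 ± 4.38 CPM, PASCs 184 ± 6.58, and EASCs 119 ± 2.38 (SD, n = 3 each), and the calls of Rrm2 were the same. Pseudogenes of the other members had at most 4 counts each, and LOC102553674, described as like cytosolic thymidine kinase, had 0 to 29.

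**Figure D2:**
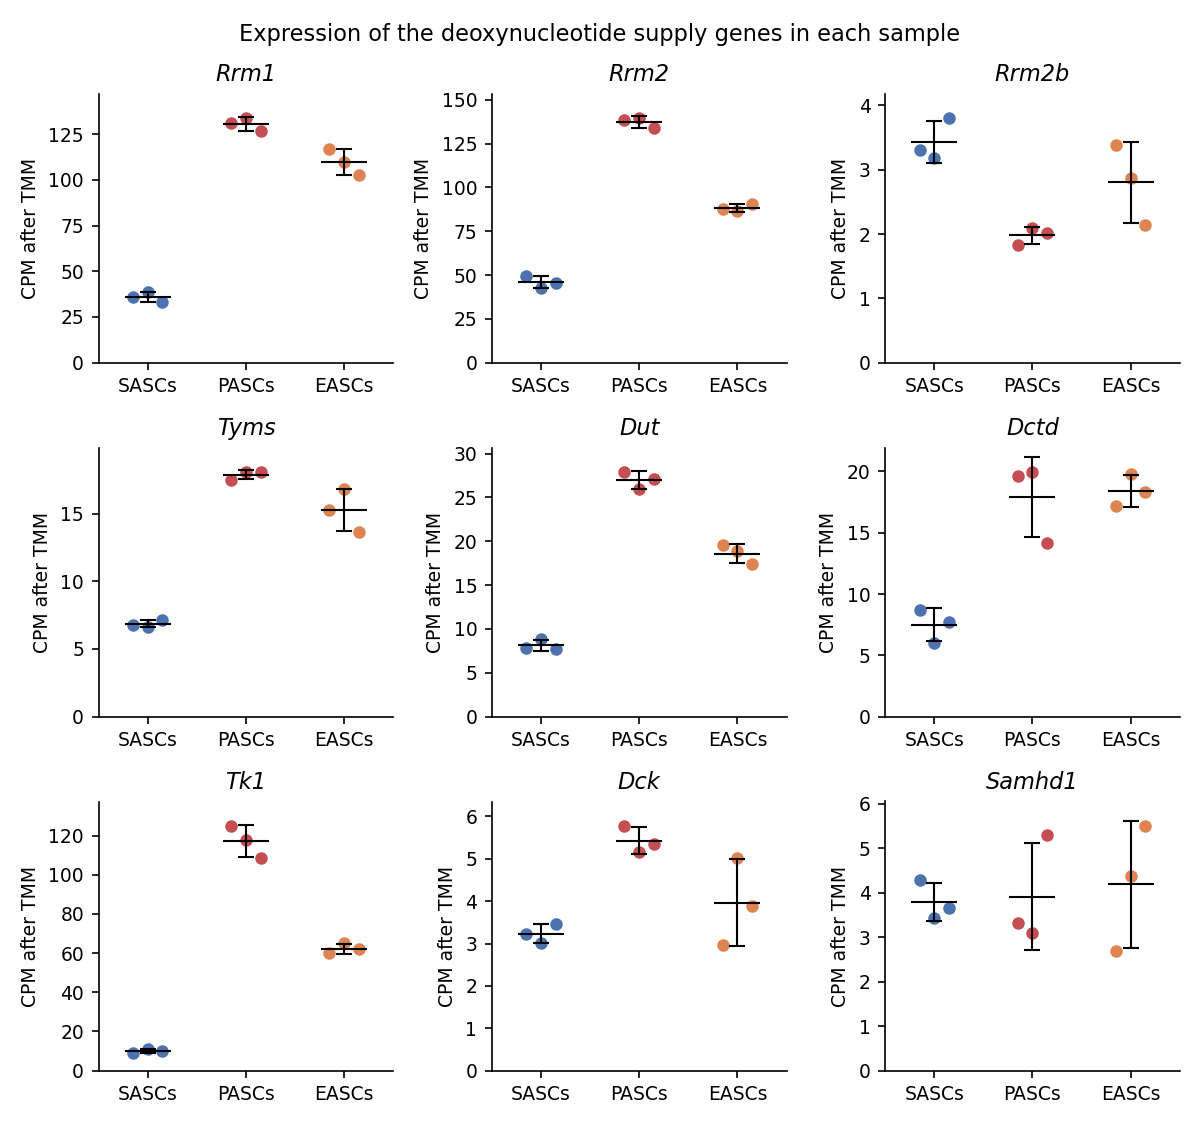
Expression of each gene in CPM after TMM (vertical axes, from 0, scaled to each gene) in the 3 samples of SASCs, PASCs, and EASCs, with the mean as a bar and the SD as whiskers. The samples of PASCs stand above those of SASCs for 7 genes, below them for Rrm2b, and on both sides of them for Samhd1.

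The genes of thymidylate supply were upregulated in both PASCs and EASCs. Dctd, dCMP deaminase, which makes dUMP from dCMP, lies on chromosome 16 from 47177144 to 47222850 (minus strand). Its levels were 8.72, 6.02, and 7.76 CPM in SASCs, 19.65, 19.95, and 14.1 CPM in PASCs, and 17.2, 19.8, and 18.3 CPM in EASCs. SASCs were separate from the others, and PASCs and EASCs overlapped. The log2 fold changes were 1.26 in PASCs (standard error 0.132, adjusted p = 2.83e-09, edgeR) and 1.29 in EASCs (standard error 0.132, adjusted p = 1.80e-09), and the direct difference was 0.03 with a 95% interval from -0.21 to 0.27 (adjusted p = 0.882). Dctd was the only DEG among the members for which EASCs did not lie below PASCs in the mean.

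Dut, on chromosome 3 from 117514401 to 117525450 (plus strand), encodes deoxyuridine triphosphatase, which makes dUMP and keeps dUTP out of DNA. It was at 7.89, 8.87, and 7.71 CPM in SASCs, at 27.9, 26.0, and 27.1 CPM in PASCs, and at 19.5, 18.9, and 17.4 CPM in EASCs. The groups did not overlap. The fold against SASCs was 3.31 in PASCs (adjusted p = 4.89e-15, edgeR) and 2.28 in EASCs (adjusted p = 2.25e-11), and EASCs stood below PASCs by 1.45-fold (adjusted p = 2.38e-05).

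Tyms, thymidylate synthetase, lies on chromosome 9 from 121918875 to 121931564 (minus strand), where the table lists LOC102549764 on the other strand with 13 to 54 counts. Its 147 to 484 counts made 6.78, 6.66, and 7.17 CPM in SASCs, 17.5, 18.1, and 18.05 CPM in PASCs, and 15.3, 16.85, and 13.7 CPM in EASCs. Against SASCs it rose 2.61-fold in PASCs (log2 1.38, standard error 0.107, adjusted p = 6.84e-12, edgeR) and 2.23-fold in EASCs (log2 1.16, standard error 0.108, adjusted p = 3.26e-10). The samples of EASCs lay below those of PASCs, and the log2 difference of -0.23 had an adjusted p of 0.0880, which became 0.0469 without EASCs replicate 2.

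The salvage kinases differed from each other. Tk1, cytosolic thymidine kinase, which phosphorylates thymidine in S phase, changed most of all members. It lies on chromosome 10 from 106817556 to 106828884 (minus strand). It was at 8.83, 11.1, and 10.15 CPM in SASCs, at 125, 118, and 109 CPM in PASCs, and at 59.9, 64.9, and 62.0 CPM in EASCs. The lowest sample of PASCs thus stood far above the highest of EASCs, and that of EASCs far above SASCs. The fold against SASCs was 11.7 in PASCs (log2 3.55, standard error 0.0804, adjusted p = 9.42e-24, edgeR) and 6.24 in EASCs (log2 2.64, standard error 0.0812, adjusted p = 6.97e-21). The first of these log2 fold changes exceeded those of 98.9% of all genes tested and the other those of 96.55%. EASCs stood below PASCs by a fold of 1.88 (log2 -0.91, standard error 0.0667, adjusted p = 1.24e-11), short of the DEG threshold.

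Dck, deoxycytidine kinase, accepts deoxycytidine and purine deoxynucleosides and is not bound to S phase. It lies on chromosome 14 from 20935442 to 20952939 (minus strand) and had 71 to 151 counts. The levels were 3.23, 3.01, and 3.46 CPM in SASCs, 5.77, 5.16, and 5.35 CPM in PASCs, and 2.97, 5.02, and 3.89 CPM in EASCs. PASCs lay above both other groups, and EASCs spread across the range of SASCs. The fold in PASCs against SASCs was 1.68 (log2 0.75, standard error 0.186, adjusted p = 9.04e-04, edgeR), and without TMM it did not pass (log2 0.42, adjusted p = 0.116). In EASCs the log2 fold change was 0.30 with a 95% interval from -0.08 to 0.67 (adjusted p = 0.173), and it passed without EASCs replicate 1 (0.47, adjusted p = 0.0357). EASCs against PASCs gave -0.45 (adjusted p = 0.0621), and -0.66 (adjusted p = 0.0139) without EASCs replicate 2.

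Samhd1, the triphosphohydrolase that cleaves deoxynucleoside triphosphates, did not move with the enzymes of synthesis. The gene lies on chromosome 3 from 153210829 to 153250707 (minus strand) and had 64 to 123 counts. Its levels were 4.27, 3.44, and 3.66 CPM in SASCs, 3.33, 3.1, and 5.29 CPM in PASCs, and 2.68, 4.375, and 5.50 CPM in EASCs. All 3 groups overlapped, and the spread within PASCs and EASCs was wide, at 30.9% and 33.95% of the mean. The log2 fold change was 0.01 in PASCs with a 95% interval from -0.44 to 0.47 (adjusted p = 0.963, edgeR) and 0.13 in EASCs with one from -0.31 to 0.58 (adjusted p = 0.615), and these intervals do not reach the change of any of the 6 members that were DEGs in PASCs.

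Counted together, 6 of the 9 genes were upregulated DEGs in PASCs against SASCs (more than 2-fold at an adjusted p under 0.05, edgeR), where 12.0% of all genes tested were, and no member was a downregulated DEG, where 14.9% of all genes were. At an adjusted p under 0.05 and any fold change, 8 members differed, beside 69.2% of all genes, and the samples did not overlap for 8, beside 71.6%. In EASCs against SASCs, Rrm1, Tyms, Dut, Dctd, and Tk1 were upregulated DEGs, which was 5 of 9 beside 13.5% of all genes, and no member was downregulated, beside 14.2%. There 6 members passed the adjusted p, beside 69.7%, and 6 did not overlap, beside 72.1%. Read against these backgrounds, the members' count of upregulated DEGs was several times the share of all genes, and the counts without a fold threshold were not far from it. The median log2 fold change of the 9 genes was 1.38 in PASCs and 1.16 in EASCs, against -0.01 and 0.01 for all genes. PASCs and EASCs were compared with the same 3 samples of SASCs, so these counts are not independent.

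In the direct comparison of EASCs with PASCs no member was a DEG in either direction by edgeR or by DESeq2, where 5.19% of all genes were higher and 2.20% lower in EASCs. Rrm1, Rrm2, Dut, and Tk1, 4 of 9, were lower in EASCs at an adjusted p under 0.05, beside 30.7% of all genes in either direction. At an unadjusted p under 0.05 there were 7, beside 39.0% of all genes, and for 7 the samples did not overlap, beside 41.2%. The median of the 9 genes was -0.25.

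Part of these counts depended on the scaling. With total counts in place of TMM, which moved the median log2 fold change of all genes to -0.33 in PASCs and -0.39 in EASCs, only Rrm1 and Tk1 remained DEGs in EASCs (2 of 9), and in PASCs Rrm2b became a downregulated DEG while Dctd was lost. With the 7 genes of ribosomal RNA removed before TMM the numbers of DEGs were 6 and 5, as above.

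**Figure D3:**
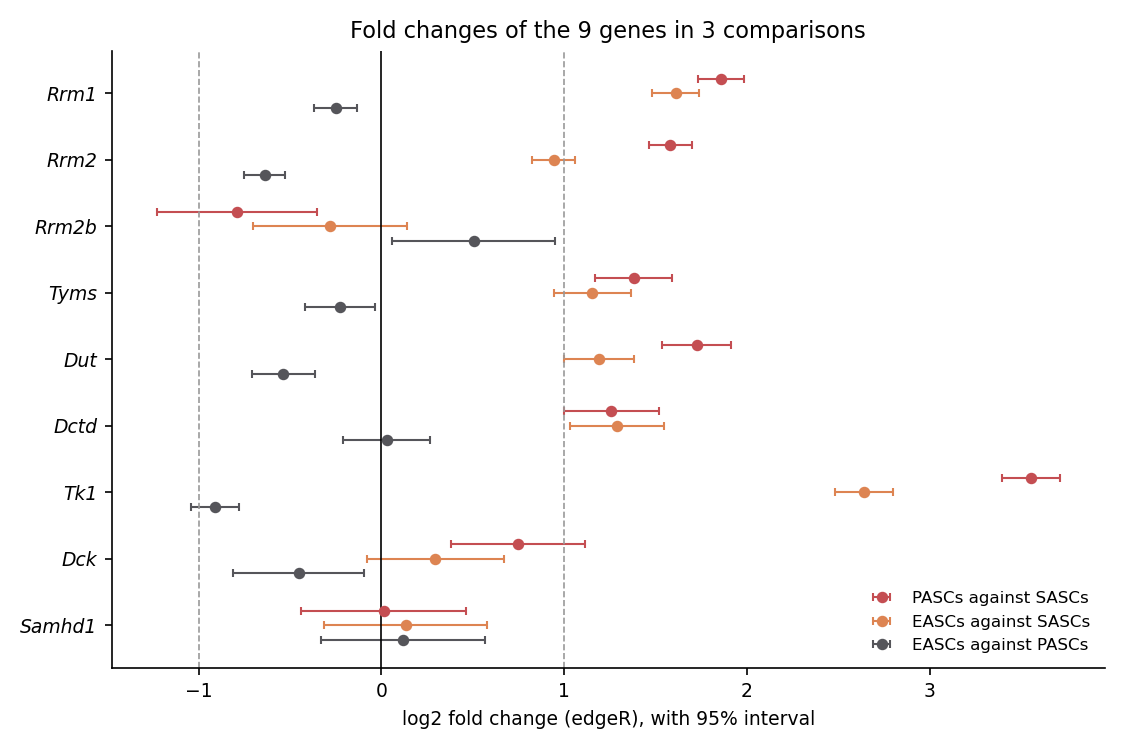
Log2 fold changes of the 9 genes (horizontal axis) by edgeR with 95% intervals, for PASCs against SASCs, EASCs against SASCs, and EASCs against PASCs, with dashed lines at a fold of 2. Tk1 reaches 3.55 and 2.64 against SASCs, Rrm2b lies at -0.79 in PASCs, and the intervals of Samhd1 include 0 in all 3 comparisons.

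The balance between members was followed as the log2 ratio of 2 genes' counts within a sample. Library size cancels in such a ratio and gene length cancels in its difference between groups. For each of 5 ratios the 3 groups were compared by a two-sided exact permutation test over the 1680 ways to assign the samples, whose smallest possible p is 0.00357, adjusted over the 5 ratios. The test asks whether the groups differ at all, and pairs of groups were not tested on their own.

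The ratio of Rrm2 to Rrm2b, the alternative small subunits, took the values 3.91, 3.74, and 3.58 in SASCs, against 6.24, 6.06, and 6.05 in PASCs and 4.70, 4.91, and 5.40 in EASCs. The groups were fully apart, with PASCs 2.38 above SASCs and EASCs 1.26 above them (exact permutation p = 0.00357, adjusted 0.00595). In PASCs the small subunit transcripts were thus shifted the most towards Rrm2. The ratio of Rrm2 to Rrm1, small to large subunit, went from 0.35 ± 0.176 in SASCs over 0.07 ± 0.0105 in PASCs to -0.31 ± 0.120 in EASCs (SD, n = 3 each, exact permutation p = 0.00357, adjusted 0.00595). Against SASCs the ratio changed by -0.28 in PASCs and by -0.67 in EASCs, so Rrm1 gained on Rrm2 in both. The side of equal counts is not settled, because with the counts of LOC100359539 added to Rrm2 the ratio was 0.81 ± 0.173 in SASCs, 0.50 ± 0.0224 in PASCs, and 0.12 ± 0.115 in EASCs (SD, n = 3 each), in the same order and above 0 in every sample.

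The ratio of Tk1 to Dck was 1.63 ± 0.227 in SASCs, 4.43 ± 0.0823 in PASCs, and 4.01 ± 0.321 in EASCs (SD, n = 3 each, exact permutation p = 0.00357, adjusted 0.00595). SASCs stood apart from both, while the highest sample of EASCs came near the lowest of PASCs. The ratio of Samhd1 to Rrm1, breakdown to synthesis, took the values -3.08, -3.48, and -3.19 in SASCs, against -5.30, -5.43, and -4.58 in PASCs and -5.45, -4.65, and -4.22 in EASCs (exact permutation p = 0.0250, adjusted 0.0313). It was lower in each sample of PASCs and EASCs than in any of SASCs, and without SASCs replicate 1 the adjusted p was 0.0536. The ratio of Dut to Tyms, 0.25 ± 0.156 in SASCs, 0.59 ± 0.0755 in PASCs, and 0.29 ± 0.108 in EASCs (SD, n = 3 each, exact permutation p = 0.0429, adjusted 0.0429), was the least stable, since leaving out any of 6 samples raised the adjusted p to between 0.05 and 0.107.

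**Figure D4:**
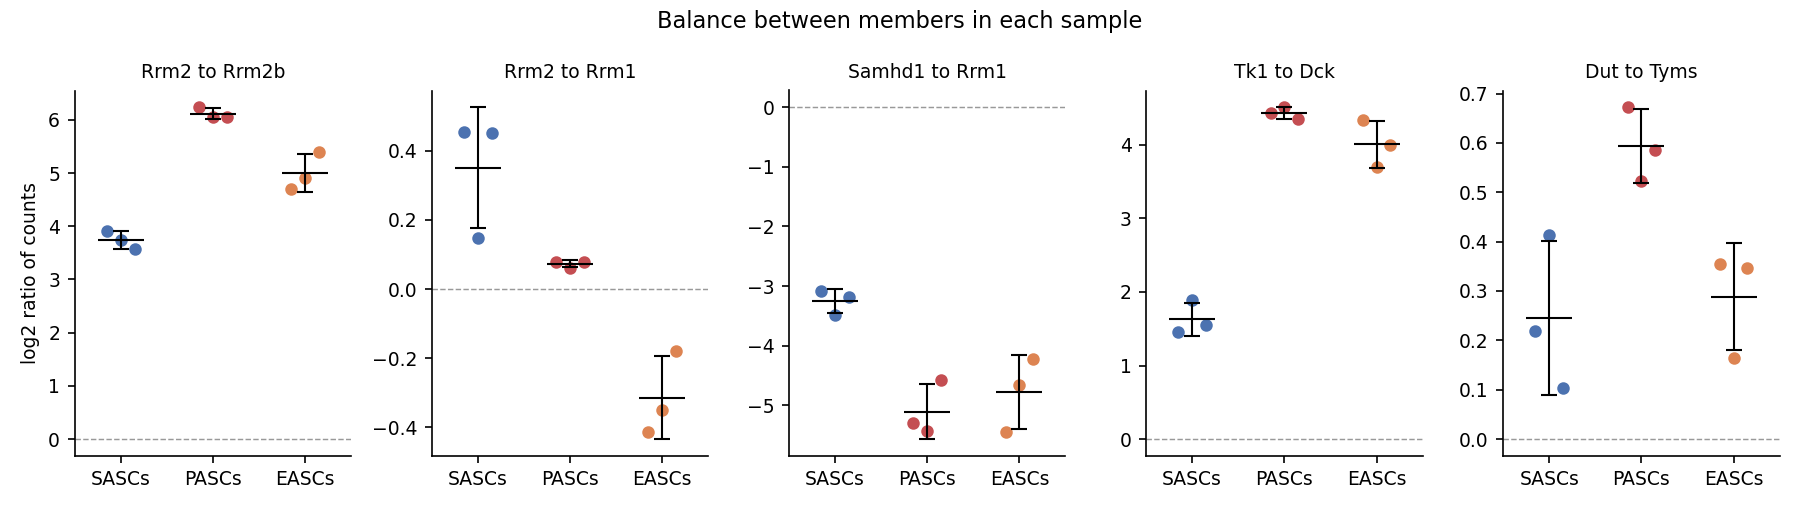
Log2 ratios of the counts of 2 genes (vertical axes, scaled to each ratio, dashed line at equal counts) in the 3 samples of SASCs, PASCs, and EASCs, with the mean as a bar and the SD as whiskers. The ratio of Rrm2 to Rrm2b rises from 3.74 in SASCs to 6.12 in PASCs with EASCs at 5.00, and that of Rrm2 to Rrm1 is highest in SASCs and lowest in EASCs, where it lies below 0 without the counts of LOC100359539 and above 0 with them.

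The genes whose profile over the 9 samples was most like that of each member were named by the smallest root mean square difference of centred log2 CPM among 12774 genes. Those nearest Tk1 were Bub1b (0.110), a mitotic checkpoint kinase, and Kifc1 (0.122), a mitotic kinesin, with log2 fold changes of 3.38 and 3.53 in PASCs and 2.51 and 2.65 in EASCs. Nearest Rrm1 were Haus4 (0.0601), a subunit of the spindle's augmin complex, and Bok (0.0648). Nearest Rrm2 were Tex2 (0.0743) and LOC100359539 (0.0764), which may share its reads. Tyms had Ccdc111 (0.0620), described as a primase and DNA polymerase, and the nucleoporin gene Ndc1 (0.0691), Dut had Tmem97 (0.0592) and the clamp loader subunit Rfc4 (0.0987), and near Dctd was Cdt1 (0.128), which licenses replication origins. The members with few counts had looser neighbours, Zfp532 (0.131) and Npl (0.133) for Rrm2b, Bend6 (0.137) and Dusp22 (0.145) for Dck, and Cdyl2 (0.145) and Zfhx2 (0.184) for Samhd1.

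Among genes outside the 9, most DNA replication genes were higher in PASCs and EASCs. Of 39 tested, 35 were upregulated DEGs in PASCs, with a median log2 fold change of 1.72, and 31 in EASCs, with a median of 1.44, where 12.0% and 13.5% of all genes tested were. The exception in sign was Rfc1, a clamp loader subunit named after its values were seen, at -0.20 in PASCs (adjusted p = 0.0122) and -0.14 in EASCs (adjusted p = 0.0652). The examples with the largest changes were Cdc45 (3.12 in PASCs and 2.63 in EASCs), Cdc6 (3.09 and 2.72), Mcm5 (3.08 and 2.64), and Gins1 (2.94 and 2.53), which load or form the replicative helicase. In EASCs against PASCs 25 of the 39 passed the adjusted p, all of them lower in EASCs, and the median was -0.37. That was a larger share than the 30.7% of all genes that passed in either direction. Of 14 cell-cycle regulators, which were E2F, Rb, Myb, and Foxm1 family genes with Lin54, Ccnf, and Fzr1, 10 were upregulated DEGs in PASCs and 8 in EASCs, with medians of 1.69 and 1.24. Mybl2 (3.53 and 3.1), E2f2 (2.89 and 2.84), E2f7 (2.88 and 2.35), and Foxm1 (2.79 and 2.26) led them. Of the Rb family, Rbl1 rose by 1.54 and 1.06, Rbl2 fell by 0.76 (adjusted p = 7.87e-10) and 0.79 (adjusted p = 4.02e-10), and Rb1 was at -0.19 (adjusted p = 0.0763) and -0.03 (adjusted p = 0.818).

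Of 11 genes of the folate cycle, which hands Tyms its methyl group, 5 were upregulated DEGs in PASCs and 4 in EASCs, where 12.0% and 13.5% of all genes were, and the medians over all 11 were 0.81 and 0.72. Mthfd2 (2.77 in PASCs and 2.64 in EASCs), Mthfd1l (2.27 and 1.95), and Shmt2 (1.66 and 1.5), of the mitochondrial arm of the cycle, were among them.

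Of 13 kinases that act on nucleosides and nucleotides beside Tk1 and Dck, 2 were upregulated DEGs in PASCs, with a median of 0.59. In EASCs 2 were upregulated and 1 downregulated, with a median of 0.30. These counts are near the shares of all genes, 12.0% upregulated in PASCs and 13.5% upregulated and 14.2% downregulated in EASCs. Nme1 (1.69 in PASCs and 1.52 in EASCs) and Nme2 (1.00 and 0.85) encode nucleoside diphosphate kinases so alike that reads could have been split between them, and Nme3 was at -0.96 and -1.36. Cmpk2, a mitochondrial kinase known to respond to interferon, had 0.50 CPM in SASCs against 0.76 in PASCs and 2.03 in EASCs, and its log2 fold changes were 2.04 for EASCs (adjusted p = 3.74e-05) and 0.65 for PASCs (adjusted p = 0.177). The mitochondrial salvage kinases Tk2 (-0.62 in PASCs and -0.39 in EASCs) and Dguok (-0.31 and -0.36), partners of Tk1 and Dck in the mitochondrion, fell at an adjusted p under 0.05, which 69.2% of all genes passed in PASCs and 69.7% in EASCs, without reaching the fold threshold.

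Of 17 genes that break nucleotides down or clean the pool, 3 were upregulated and 3 downregulated DEGs in PASCs (median 0.22), and 3 and 4 in EASCs (median 0.27), where the shares of all genes were 12.0% and 14.9% in PASCs and 13.5% and 14.2% in EASCs. Dctpp1, which hydrolyses dCTP and its modified forms, rose from 0.809 CPM to 12.1 in PASCs and 8.73 in EASCs, which were log2 fold changes of 3.92 and 3.44. Nudt1, which removes oxidized dGTP, rose by 1.91 and 1.04. Xdh, xanthine dehydrogenase, fell from 424 CPM to 101 in PASCs and 93.9 in EASCs, and Dpyd, which degrades uracil and thymine, was at 1.36 CPM in SASCs and under 1 CPM in the other groups, both as downregulated DEGs in each. Cda, cytidine deaminase, had 0 counts in every sample, below the limit of 3 counts or 0.104 to 0.159 CPM.

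In the synthesis of pyrimidines, Dhodh (1.17 in PASCs and 1.19 in EASCs) and Umps (1.01 and 0.71) were upregulated DEGs of 7 tested in PASCs and Dhodh alone in EASCs, where 12.0% and 13.5% of all genes were, and the medians were 0.57 and 0.47. Among 13 genes of purine synthesis, 2 were upregulated DEGs in PASCs, near the 12.0% of all genes, and 3 in EASCs, where 13.5% of all genes were, with medians of 0.46 and 0.39. They were Impdh1 (1.22 and 1.30) and Prps1 (1.12 and 1.06) in both groups and Prps2 (0.24 and 1.22) in EASCs. Hprt1, on the same list, had only 0 to 2 counts per sample, although it is a gene that most cells use. Of 6 nucleoside carriers tested, the concentrative transporter Slc28a2 (-2.11 and -1.52) and Slc29a3 (-1.09 and -1.01) were downregulated DEGs in both groups, where 14.9% and 14.2% of all genes were, and the list's medians were -0.59 and -0.43. The equilibrative transporter Slc29a1 went the other way (0.73, adjusted p = 5.95e-06, and 0.36, adjusted p = 0.0112).

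**Figure D5:**
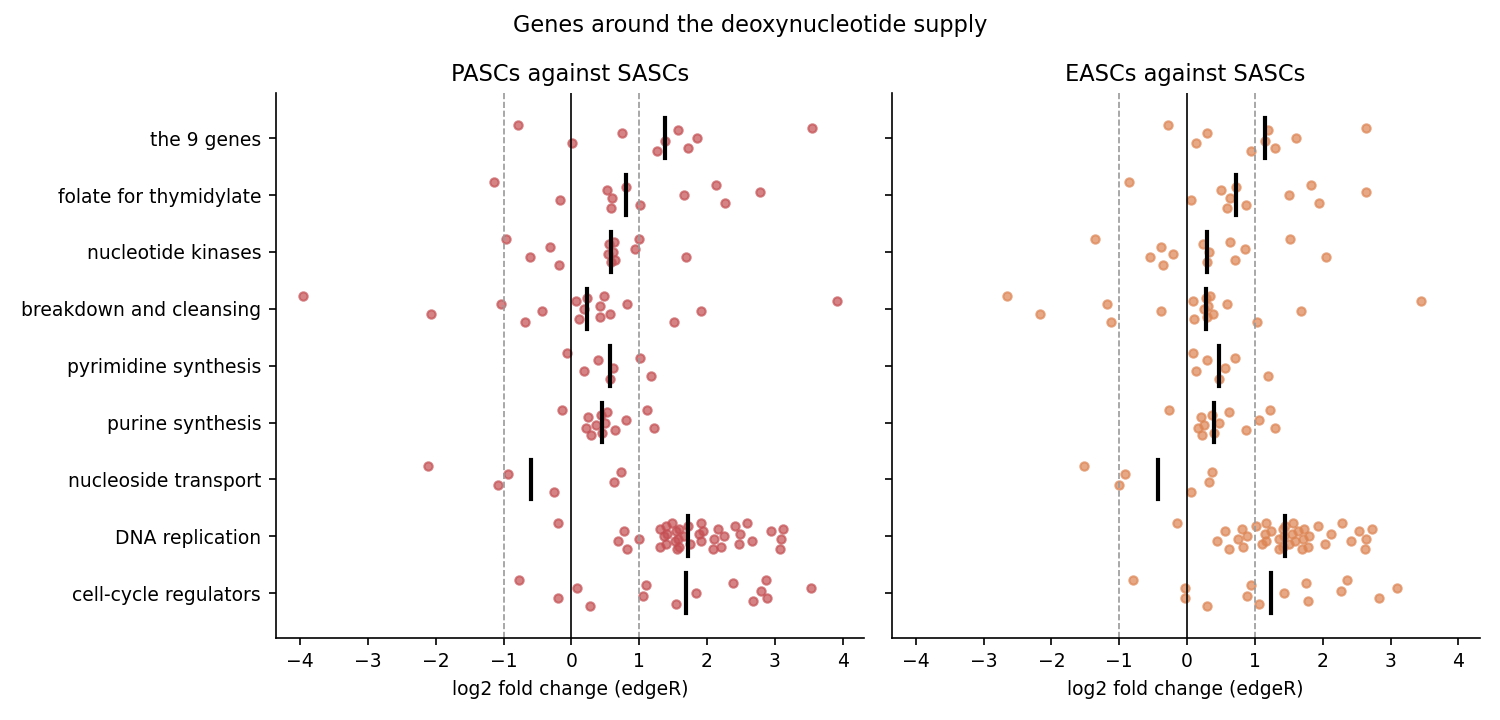
Log2 fold changes by edgeR (horizontal axes) of the genes in 9 lists, a point for each gene tested and a bar at the median, for PASCs against SASCs and EASCs against SASCs, with dashed lines at a fold of 2. The points for DNA replication centre at 1.72 and 1.44 and those of the 9 supply genes at 1.38 and 1.16, while the medians of nucleoside transport lie below 0.

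Because Rrm2b is a target of p53 and Samhd1 of interferon, genes of both responses were also counted. Of 16 p53 targets, 1 was upregulated and 1 downregulated as a DEG in PASCs (median 0.24), and 2 each in EASCs (median 0.39). None of these counts exceeded the share of all genes, which was 12.0% upregulated and 14.9% downregulated in PASCs and 13.5% and 14.2% in EASCs. Phlda3 (1.77 in PASCs and 1.88 in EASCs) and Sesn2 (0.96 and 1.14) rose, and Btg2 (-2.49 and -1.82) and Sesn1 (-0.51 and -1.03) fell. Cdkn1a, the cell-cycle inhibitor among them, was higher in both groups at 0.66 and 0.80, opposite in sign to Rrm2b. Of 14 interferon genes, 4 were downregulated DEGs in PASCs (median -0.82), and in EASCs 2 were upregulated and 3 downregulated (median -0.53). Of all genes 14.9% were downregulated DEGs in PASCs, and the counts in EASCs are near the 13.5% and 14.2% of all genes. Ifit3 (-2.78 and -0.89), Oas1a (-2.50 and -1.53), and Usp18 (-0.95 and -1.45) fell, and Bst2 (0.65 and 1.86) rose, while Samhd1 did not pass the test in any comparison.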

How the data were processed

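RNA of ASCs was sequenced in 9 samples. The authors trimmed and aligned paired-end reads with TopHat2, per the processing notes, and deposited raw counts for 35362 genes without normalization. The tool that counted the reads and its use of strand are not given in the sources used here. Metabolite data were not analysed here. Samples were grouped by their labels.

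Counts were fitted with edgeR 4.0.16 in R 4.3.3 (TMM, filterByExpr at a minimum count of 10, all 9 samples in a single model of 3 groups, quasi-likelihood test, Benjamini-Hochberg adjustment over 14770 genes in each comparison). DEGs were genes past a 2-fold change at an adjusted p under 0.05. Intervals are 95% intervals from the standard error. FPKM used the lengths in the table. The alternatives were DESeq2 1.42.0, other scalings and filters, the replicate number as a block, a fit of only the groups being compared, a fold above 1.5, and leaving out each replicate.

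The members and lists were chosen with earlier results of these data known. Named were all members, for each member the 2 genes of mean CPM of at least 1 with the most similar profile, and at most 4 DEGs with the largest changes in each list. Rb1, Rbl1, Rbl2, Slc29a1, Tk2, Dguok, Cda, Hprt1, Cdkn1a, and the single mesenchymal markers were named after their values were seen. Some genes that these rules select are not reported here. Scaled by total counts with ribosomal RNA included, each pair of replicates differed by more than counting noise (chi-square per degree of freedom of at least 6.23). This measure also holds differences in ribosomal RNA between libraries, so it does not show the spread that remains after TMM. A gene at 3 counts had 0.104 to 0.159 CPM, a limit that covers counting error only.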

Additional observations from a re-analysis of the deposited data

How the results depend on the processing

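For the 9 genes in 3 comparisons, 231 of 243 values with a replicate left out and 208 of 216 under other settings kept their direction and their side of an adjusted p of 0.05, whatever their fold. With total counts without TMM the DEGs in EASCs against SASCs fell from 5 to 2, and with a fold above 1.5 those in EASCs against PASCs rose from 0 to 2 (Rrm2 and Tk1, both lower). Leaving out each replicate left 6 DEGs in PASCs, 5 to 6 in EASCs (Rrm2 joined without SASCs replicate 1), and 0 between them. The reversed values all belonged to differences that had not passed. For Samhd1 in PASCs they were -0.016 with the replicate block, -0.29 without TMM, and -0.24 to 0.16 over the samples left out. In EASCs Samhd1 went to -0.28 without TMM and lay between -0.10 and 0.37 with a sample left out, and Dck to -0.084 without TMM. Between EASCs and PASCs, Samhd1 ranged from -0.12 to 0.38 and Dctd from -0.10 to 0.11 over the samples left out, and Dctd went to -0.018 without TMM. The cause was not tested.

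With the replicate block the numbers of DEGs were 6, 5, and 0, as without it, and 4 of 9 samples correlated best with their own number, with correlations of the deviations of same-numbered samples between -0.0348 and 0.0380, so the number was not taken to pair them. Permuted within replicate numbers, which allows no p under 0.0278, the ratio of Samhd1 to Rrm1 (PASCs minus SASCs, -1.855) had an adjusted p of 0.0694 and that of Dut to Tyms (0.348) one of 0.139. With a replicate left out, PASCs minus SASCs ranged from 2.29 to 2.46 for Rrm2 to Rrm2b, -0.38 to -0.23 for Rrm2 to Rrm1, -2.12 to -1.69 for Samhd1 to Rrm1, 2.71 to 2.93 for Tk1 to Dck, and 0.28 to 0.43 for Dut to Tyms. Rrm2b, Dck, and Samhd1 had at most 151 counts in any sample, which limits their precision.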
